A study of Mus musculus with 72 samples.

Results

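A set of 8 genes of the mouse Serpina family were described across liver libraries of 2 strains, both sexes and 3 diets: Serpina3c, Serpina3k, Serpina3m, Serpina3n, Serpina6, Serpina7, Serpina10 and Serpina12. They were taken by name and found in the gene count table by Ensembl ID, with symbols from the authors' deposited comparison table. All 8 were among the 51912 genes of the table and all 8 passed the filter on low counts that left 19362 genes tested. The 72 libraries came from livers of DBA/2J and C57BL/6J mice, titled M or F, that ate a Low Protein, Medium Protein or Control diet. Each of the 12 groups held 6 libraries. All mice started their diet at 10 weeks of age, ate it for 13 weeks, were 23 weeks old at harvest, were housed at about 22 °C and had been fasted for 16 h. The labels name no allele or drug, so the groups share the diet schedule, the fast and the tissue. Another strain in the study's title was not analysed here.

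Serpins are secreted or intracellular proteins, most of which trap a serine protease by offering it a bait loop and then changing shape around it. Clade A serpins are largely made by hepatocytes and released into plasma, and some of them carry hormones instead of blocking a protease. Serpina12 encodes vaspin, named as a serpin of visceral adipose tissue, an adipokine that inhibits the protease kallikrein 7 and is linked to insulin sensitivity. Serpina6 encodes corticosteroid-binding globulin, the plasma carrier of glucocorticoids. Serpina7 encodes thyroxine-binding globulin, a carrier of thyroid hormone. Serpina10 encodes the protein Z-dependent protease inhibitor, which blocks coagulation factor Xa with protein Z as its cofactor. The Serpina3 genes are a mouse expansion of the single human gene for antichymotrypsin, and Serpina3n is an acute phase gene whose protein inhibits granzyme B.

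Of the 8 genes, 7 lay in 1 cluster on chromosome 12 (GRCm38, GENCODE M21), and all 8 are annotated as protein coding. In order along the chromosome these were Serpina10 (chr12:103614786-103631444, minus strand), Serpina6 (chr12:103646630-103657212, minus), Serpina12 (chr12:104028769-104044443, minus), Serpina3c (chr12:104146382-104153870, minus), Serpina3k (chr12:104338486-104346144, plus), Serpina3m (chr12:104338486-104394257, plus) and Serpina3n (chr12:104406729-104414329, plus). Serpina7 lay on chromosome X (chrX:139079257-139085236, minus). The annotations of Serpina3k and Serpina3m begin at the same base and overlap, so reads from their shared part cannot be assigned to either with certainty. RefSeq promoter windows (GRCm38.p6), from 250 bases before to 50 bases after the start site, were found for 4 of the 8 genes. The windows of Serpina3c, which had the largest strain difference of the 8, of Serpina12, the member called under Low Protein in DBA/2J, and of Serpina7, which rose under Low Protein in C57BL/6J M, are shown 5′ to 3′, with motif matches in capitals. They are reference sequence, and DBA/2J alleles were not analysed here.
Serpina12 (chr12:104044394-104044693, minus): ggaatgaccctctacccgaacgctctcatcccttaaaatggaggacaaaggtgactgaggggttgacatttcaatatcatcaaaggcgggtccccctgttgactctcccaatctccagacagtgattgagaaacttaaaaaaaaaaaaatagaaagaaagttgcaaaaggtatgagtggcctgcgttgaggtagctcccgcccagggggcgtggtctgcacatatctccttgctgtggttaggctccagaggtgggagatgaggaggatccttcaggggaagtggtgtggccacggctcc
Serpina3c (chr12:104153823-104154122, minus): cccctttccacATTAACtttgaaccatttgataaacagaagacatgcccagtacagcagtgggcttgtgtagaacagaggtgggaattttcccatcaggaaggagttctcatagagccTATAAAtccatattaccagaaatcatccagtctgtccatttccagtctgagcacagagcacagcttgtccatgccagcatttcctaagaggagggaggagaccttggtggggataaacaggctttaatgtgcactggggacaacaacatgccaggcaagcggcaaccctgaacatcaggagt
Serpina7, the first of its 2 start sites (chrX:139085187-139085486, minus): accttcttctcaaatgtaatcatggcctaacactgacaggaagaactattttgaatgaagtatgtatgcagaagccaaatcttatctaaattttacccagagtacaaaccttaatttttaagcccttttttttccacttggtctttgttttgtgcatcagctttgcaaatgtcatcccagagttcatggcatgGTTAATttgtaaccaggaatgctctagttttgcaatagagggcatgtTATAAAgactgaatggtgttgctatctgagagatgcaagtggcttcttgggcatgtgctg

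A set of 4 motifs was searched on both strands: the motif GTTAAT, the TATA box TATAAA, the STAT5 motif TTCNNNGAA and the CEBP motif TTNCGNAA. None of the 4 was found in the Serpina12 window. In the Serpina3c window GTTAAT, read as ATTAAC on the gene's strand, began at -239 and TATAAA at -132. In the Serpina7 window GTTAAT began at -57 and TATAAA at -10. Counted from the second of its 2 start sites, the same matches began at -74 and -27. Over 32851 RefSeq promoter windows of this length, 7.1% held GTTAAT, 13.6% TATAAA, 8.3% the STAT5 motif and 2.47% the CEBP motif. A match describes the letters of the window, and no match says only that these letters are not in it.

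The libraries held 26937177 to 38447505 counts (median 32390194), and values are given as CPM (the count scaled to 1e6 counts of the library size after TMM, a correction for differences in RNA composition). The M and F titles fitted Xist in 72 of 72 libraries, and hepatocyte markers summed to 50800 CPM or more in every library, the lowest being in C57BL/6J F Low Protein. Ribosomal-like RNA took over 5% of counts in 4 libraries, 2 of them in C57BL/6J M Control (8.51% and 21.8%). Defining adipocyte markers were at or near 0: Lep, Plin1, Retn and Slc36a2 had a median of 0 CPM and Adipoq reached at most 1.17 CPM, while Adrb3 ranged between 0.823 and 21.6 CPM. The well-like codes of the libraries run in group order, so position and group cannot be told apart. These are bulk livers, in which fewer cells of a type and less RNA per cell cannot be told apart. Each title has a number with N or R, and 6 such numbers were used by 2 libraries of a group each. The labels do not say what the codes mark, so some libraries of a group may share a source. The p-values measure the spread between libraries of the same group, estimated jointly over the 12 groups.

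Levels per kilobase of exon differed widely between the 8 genes. Serpina3k, whose protein is known as contrapsin and as a kallikrein-binding protein, was the most abundant, with a mean of 3820 CPM per kb and group means between 1360 and 6010. Serpina3m followed with 447 CPM per kb and Serpina3n with 238. Serpina6 had 69.6, Serpina3c 43.8, Serpina10 40.0 and Serpina7 24.2 CPM per kb. Serpina12 had the lowest mean, 9.7 CPM per kb, with group means between 0.529 and 43.9. The deposited counts were estimates that need not be whole numbers. In Serpina3k they were not whole in 72 of 72 libraries, in Serpina3m in 71, in Serpina3n in 53 and in Serpina3c in 37, and RSEM, the submitters' counting tool, gives such fractions where a read can come from more than 1 gene. In Serpina6, Serpina7, Serpina10 and Serpina12 they were whole in 72 of 72 libraries, so no count of these genes was divided visibly with another.

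**Figure D1:**
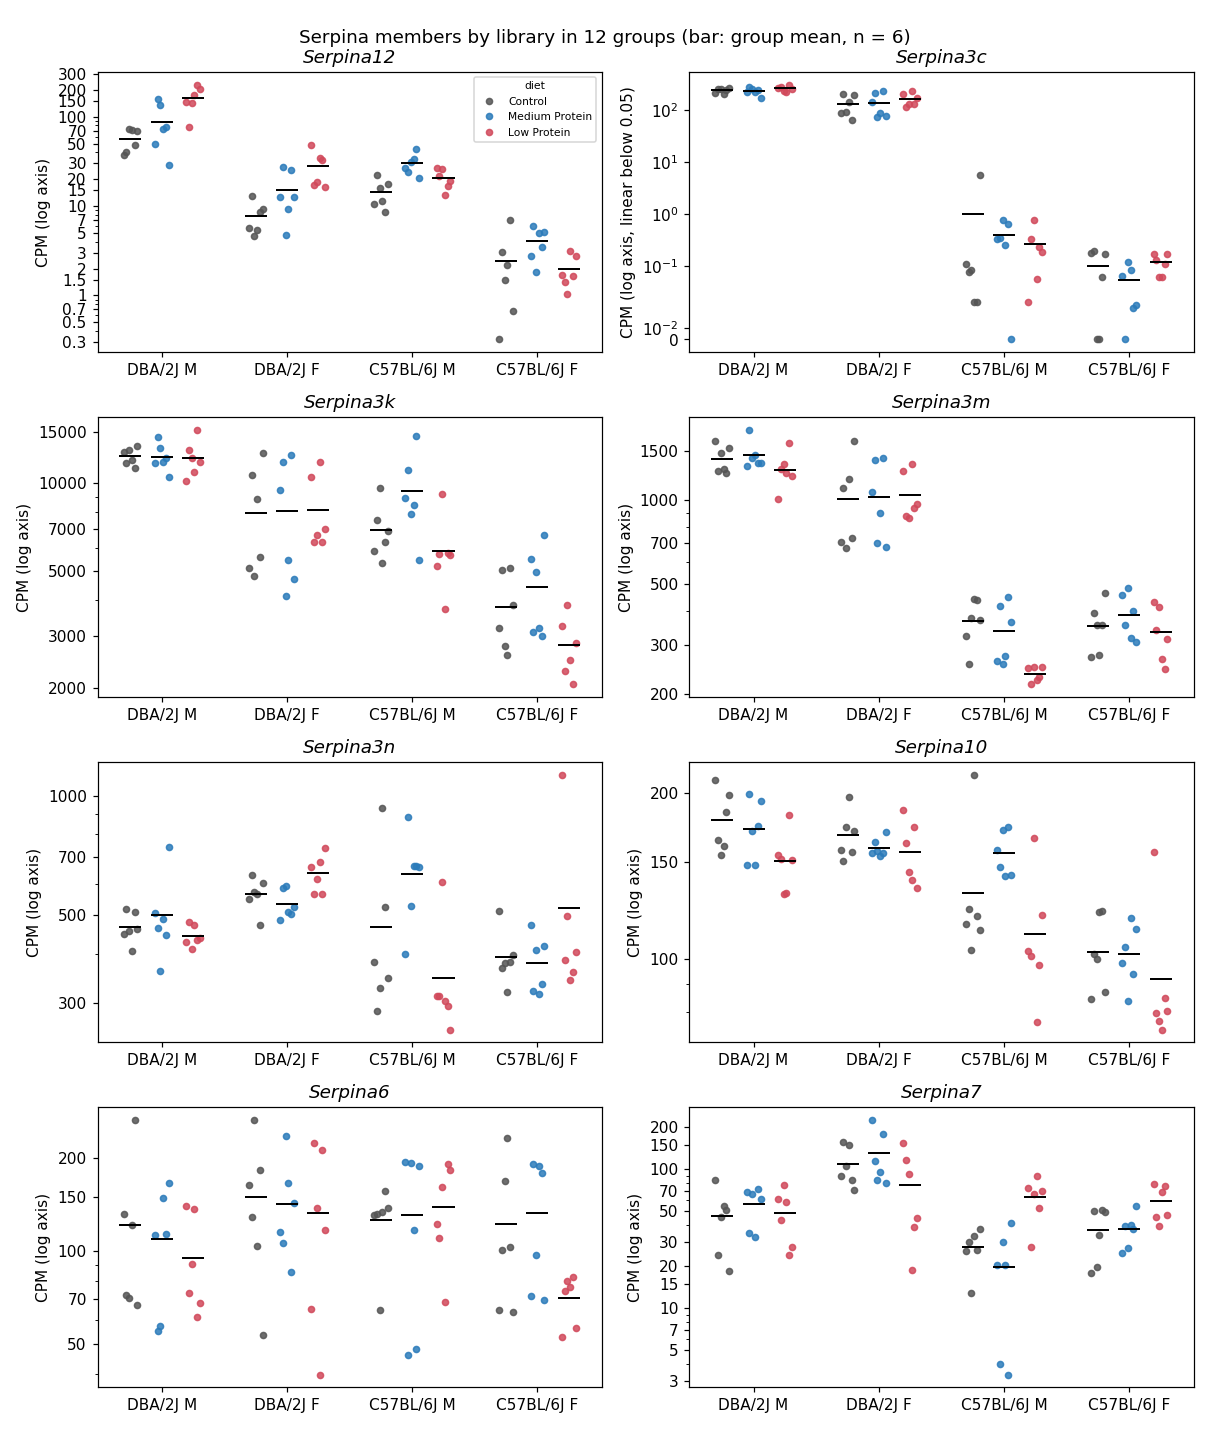
Level of each of the 8 genes in CPM (log axis, linear below 0.05 CPM for Serpina3c) in each of the 12 groups, with 1 point per library and a bar at the mean of 6 libraries. Serpina3c in all 36 DBA/2J libraries lies between 63.1 and 308 CPM, above the 36 C57BL/6J libraries, which reach at most 5.62 CPM.

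Strain was set beside the other factors by averaging the 3 diets within each sex, with edgeR's quasi-likelihood test and Benjamini-Hochberg adjustment over the 19362 genes. A gene was called where the adjusted p was under 0.05. In M libraries 6 of the 8 genes were called, all 6 higher in DBA/2J, where 51.1% of all genes tested were called. In F libraries 7 of 8 were called, all higher in DBA/2J, where 49.8% of all genes were called. The median log2 difference of the 8 was 0.69 in M and 1.21 in F, against -0.008 and -0.009 for all genes tested. Serpina3c, which was near the floor in C57BL/6J, is among those called in both sexes. Where about as many genes are called as not, such a count says little by itself, and the sizes follow.

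Serpina3c had the largest strain difference. It ranged between 171 and 308 CPM in 18 DBA/2J M libraries (median 248), against 0 and 5.62 CPM in 18 C57BL/6J M libraries (median 0.206). In F it ranged between 63.1 and 233 CPM in DBA/2J (median 136), against 0 and 0.193 CPM in C57BL/6J (median 0.0740). The strains did not overlap in either sex. The DBA/2J libraries held 225378 counts of the gene in all and at least 1927 each, while the C57BL/6J libraries held 286 counts, with 4 libraries at 0 and a median of 3.5 counts. The log2 difference was 9.13 ± 0.32 in M and 10.65 ± 0.37 in F (SE). The gene passed the filter on low counts through its DBA/2J libraries, and its C57BL/6J counts were few. These sizes therefore depend on values near the floor and are given with no test. C57BL/6J M Control replicate 6 held 101 of the 286 counts, and the next highest C57BL/6J library held 25. Without that replicate 6 the M difference was 10.28. Replicate 6 also had the 21.8% of ribosomal-like RNA, and the part of either in its Serpina3c count was not tested.

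Serpina3m, whose annotation covers the start of Serpina3k, also had strains that did not overlap. It ranged between 1011 and 1787 CPM in DBA/2J M (median 1346), against 217 and 449 CPM in C57BL/6J M (median 269). In F it ranged between 669 and 1627 CPM in DBA/2J (median 947), against 248 and 484 CPM in C57BL/6J (median 354). The log2 difference was 2.16 ± 0.11 in M (adjusted p = 5.44e-28) and 1.52 ± 0.10 in F (adjusted p = 1.11e-20).

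Serpina12 was higher in DBA/2J in both sexes. In M its level was 28.7 to 229 CPM in DBA/2J (median 74.4), against 8.64 to 43.4 CPM in C57BL/6J (median 21.1), and 15 of 18 DBA/2J libraries lay above the highest C57BL/6J library. In F it was 4.60 to 48.5 CPM in DBA/2J (median 12.8), against 0.323 to 7.02 CPM in C57BL/6J (median 2.46), with 14 of 18 DBA/2J libraries above the highest C57BL/6J one. The fold was 4.46 in M (log2 2.16 ± 0.22, adjusted p = 2.26e-13) and 5.57 in F (2.48 ± 0.24, adjusted p = 4.2e-14). From Control libraries alone the F difference was 1.66 (adjusted p = 0.00127). The ranges overlapped in both sexes, and all 18 DBA/2J libraries lay above the C57BL/6J median in each.

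The other called strain differences were smaller than these. Serpina3k was higher in DBA/2J by 0.76 ± 0.14 in M (adjusted p = 3.32e-06) and 1.16 ± 0.14 in F (8.36e-11) on the log2 scale. Serpina10 was higher by 0.34 ± 0.08 in M (0.000309) and 0.70 ± 0.08 in F (3.75e-11), with 11 of 18 DBA/2J F libraries above the highest C57BL/6J F library. Serpina7 was higher by 0.62 ± 0.23 in M (0.0204) and 1.25 ± 0.23 in F (4.82e-06). The M difference of Serpina7 was not called from Control libraries alone (0.74, adjusted p = 0.161). Serpina3n was called in F (0.44 ± 0.12, adjusted p = 0.00151), and in M its log2 difference was 0.01 ± 0.12 (adjusted p = 0.978). Serpina6 was called in neither sex, with log2 differences of -0.29 ± 0.22 in M (adjusted p = 0.271) and 0.43 ± 0.22 in F (adjusted p = 0.0914). The F value was called with 1 of 3 libraries left out, C57BL/6J F Control replicate 4 (0.53, adjusted p = 0.0374), DBA/2J F Control replicate 6 (0.50, 0.0498) or DBA/2J F Low Protein replicate 4 (0.50, 0.0468).

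**Figure D2:**
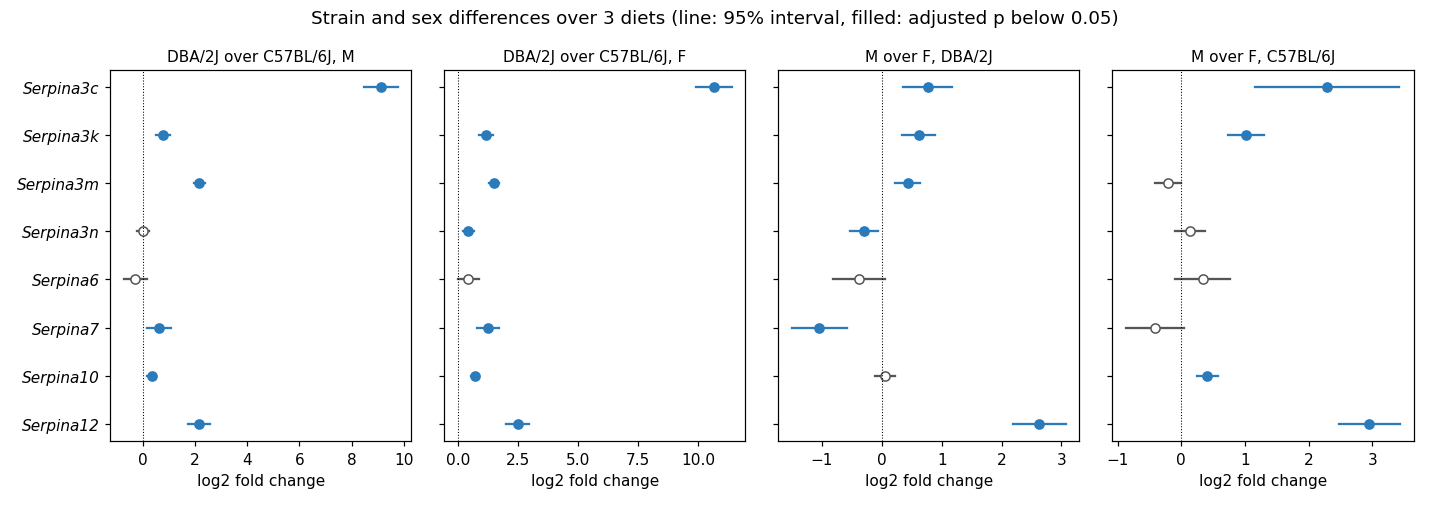
Log2 fold changes of the 8 genes for DBA/2J over C57BL/6J and for M over F, averaged over 3 diets, with 95% intervals and filled points where the adjusted p was under 0.05. Serpina3c stands farthest out in the strain panels, at 9.13 in M and 10.65 in F, and Serpina12 has the largest M over F difference, at 2.63 in DBA/2J and 2.95 in C57BL/6J.

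The chromosome 12 genes were next set among their neighbours. Between 103614786 and 104414329 the annotation holds 42 genes, 28 of them with Serpina names, of which 22 were tested. In DBA/2J against C57BL/6J, 16 of the 22 were higher and 3 lower in M (median log2 1.22), where 51.1% of all genes were called, and 18 were higher and 2 lower in F (median 1.82), where 49.8% were. Over all 19362 genes 4867 were higher in M and 4672 in F. The genes around Serpina3c also had large differences. Serpina5, the protein C inhibitor, differed by 5.94 in M and 6.06 in F, Serpina3a by 6.65 and 5.42, and the pseudogene Serpina3e-ps by 9.22 and 10.29. Their levels were low, with Serpina5 at 4.96 CPM in DBA/2J M against 0.112 CPM in C57BL/6J M. In C57BL/6J M Control, Serpina3a had 0 counts in every library, Serpina3e-ps at most 2 and Serpina5 at most 8. Genes this low in C57BL/6J pass the filter on low counts only through DBA/2J, which sets their direction in advance. These genes and Serpina3c are in the counts and medians above, which are a description with no test. On the other side of Serpina12, Serpina11 differed by 2.18 in M and 2.27 in F, and Serpina9 by 2.43 and 2.13.

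Not every gene of the cluster was higher in DBA/2J. Serpina1d, 1 of the mouse alpha-antitrypsin genes, was lower in DBA/2J (-0.37 ± 0.07 in M, adjusted p = 5.99e-06, and -0.94 ± 0.07 in F, adjusted p = 5.66e-19). Serpina3f was lower by log2 values of -0.82 and -0.68. Serpina1e was lower in DBA/2J M (-2.28 ± 0.31, adjusted p = 2.91e-09) and higher in DBA/2J F (3.43 ± 0.32, adjusted p = 1.71e-14). These genes have close copies in the cluster, and how reads with DBA/2J bases were placed among them on the authors' reference was not tested. Summed over the 14 Serpina3 genes of the table, which does not depend on how reads were divided among them, DBA/2J was higher by 0.84 ± 0.13 in M (adjusted p = 5.66e-08) and 1.15 ± 0.13 in F (6.31e-12). Serpina3k made up 76.7% to 90.6% of that sum.

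**Figure D3:**
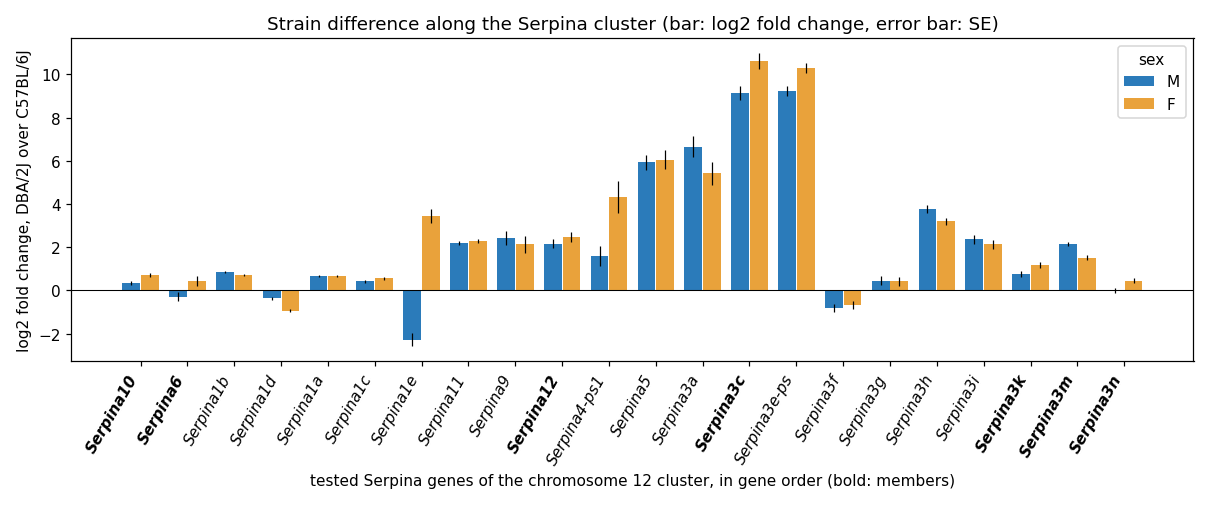
Log2 fold change of DBA/2J over C57BL/6J in M and F for the 22 tested Serpina genes of the chromosome 12 cluster in gene order, with SE as error bars and the 7 described genes in bold. The tallest bars are those of Serpina3c and Serpina3e-ps, and Serpina1e is the gene with opposite signs in M (-2.28) and F (3.43).

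Markers of other cell types were read beside strain and sex. The summed adipocyte list was 13.4 to 22.8 CPM in DBA/2J M, against 1.21 to 4.2 CPM in C57BL/6J M, and 9.05 to 18.2 CPM in DBA/2J F, against 0.981 to 2.94 CPM in C57BL/6J F. Of its 6 genes only Adrb3 was tested, at 2.77 in M and 2.84 in F on the log2 scale (both called), and 4 had a median of 0 over the 72 libraries. In DBA/2J M the median of that sum was 15.9, 16.1 and 15.9 CPM on Control, Medium Protein and Low Protein. The pancreatic acinar list, of which 6 of 9 genes had a median of 0, summed to 14.4 to 30.3 CPM in DBA/2J M, against 3.4 to 9.73 CPM in C57BL/6J M. The stellate and fibroblast list summed to 402 to 549 CPM in DBA/2J M, against 263 to 412 CPM in C57BL/6J M, with 4 of 9 genes called higher and 2 lower. The cholangiocyte list summed to 9.82 to 17.9 CPM in DBA/2J M, against 17.2 to 39.8 CPM in C57BL/6J M, with 3 of 6 lower and none higher. For T and NK cells 6 of 9 tested genes were lower and 1 higher in DBA/2J M, and for red blood cells 5 of 7 were lower and 1 higher, where 51.1% of all genes were called. Their sums overlapped, with T and NK cell genes at 2.18 to 5.37 CPM in DBA/2J M and 2.02 to 5.39 CPM in C57BL/6J M, and red blood cell genes at 139 to 325 CPM in DBA/2J M and 127 to 480 CPM in C57BL/6J M. Of the macrophage and Kupffer cell markers, 10 of 11 were lower in M than in F in C57BL/6J, where 42.2% of all genes were called. Their sum was 138 to 348 CPM in C57BL/6J M, against 224 to 1230 CPM in C57BL/6J F. On Control, Medium Protein and Low Protein its medians were 217, 285 and 278 CPM in M, and 305, 338 and 296 CPM in F. The part of these markers in the strain and sex differences was not tested.

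Sex was compared the same way, as M over F within each strain. In C57BL/6J 4 of the 8 genes were called, all higher in M, where 42.2% of all genes were called. Serpina3c, which was near the floor in this strain, is among them, and its value is given below with no test. In DBA/2J 6 of 8 were called, 4 higher and 2 lower in M, where 39.2% of all genes were called. The median log2 difference of the 8 was 0.37 in C57BL/6J and 0.24 in DBA/2J, against -0.016 and -0.009 for all genes tested. Taking library totals in place of TMM moves M over F by -0.235 in C57BL/6J and -0.241 in DBA/2J for every gene.

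Serpina12 was the member with the largest M over F difference in both strains. In DBA/2J the 18 M libraries had 28.7 to 229 CPM (median 74.4), and the 18 F libraries 4.60 to 48.5 CPM (median 12.8), with 15 M libraries above the highest F one. In C57BL/6J all 18 M libraries (8.64 to 43.4 CPM, median 21.1) lay above all 18 F libraries (0.323 to 7.02 CPM, median 2.46). The fold was 6.19 in DBA/2J (log2 2.63 ± 0.22, adjusted p = 5.53e-16) and 7.73 in C57BL/6J (2.95 ± 0.24, adjusted p = 2.1e-16). The difference between the strains in this sex difference was -0.32 ± 0.31 (95% interval -0.95 to 0.30, adjusted p = 0.526), and these data leave its sign undetermined. With strain and sex together, DBA/2J M averaged 102 ± 61.0 CPM and C57BL/6J F 2.81 ± 1.88 CPM (SD, n = 18 each).

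Serpina3k was higher in M in both strains. In C57BL/6J it averaged 7402 ± 2604 CPM in M and 3656 ± 1286 CPM in F (SD, n = 18 each), a log2 difference of 1.02 ± 0.14 (adjusted p = 1e-08). In DBA/2J it averaged 12310 ± 1286 CPM in M and 8029 ± 3000 CPM in F, a difference of 0.62 ± 0.14 (adjusted p = 0.000206). All 18 M libraries lay above the F median in each strain, with 9 in C57BL/6J and 7 in DBA/2J above the highest F library.

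Serpina3c was called higher in M in DBA/2J, and its value in C57BL/6J stands on a different footing. In DBA/2J it averaged 243 ± 31.4 CPM in M and 143 ± 57.5 CPM in F (0.77 ± 0.21, adjusted p = 0.00195). In C57BL/6J, where the 36 libraries held a median of 3.5 counts, the difference was 2.29 ± 0.57. The C57BL/6J F median of 0.0740 CPM lay under 0.121 CPM, the highest level that 3 counts gave in a library. The difference in C57BL/6J therefore rests on values near the floor and is given with no test. Without C57BL/6J M Control replicate 6 it was 1.14 and did not pass the threshold.

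Serpina3m and Serpina10 had a sex difference that itself differed between the strains. For this difference of differences 2 of the 8 genes were called, where 20.2% of all genes were called. Serpina3m averaged 1380 ± 179 CPM in DBA/2J M and 1023 ± 294 CPM in DBA/2J F (0.43 ± 0.10, adjusted p = 0.000418). In C57BL/6J it averaged 314 ± 82.8 CPM in M and 358 ± 71.6 CPM in F (-0.21, adjusted p = 0.0855), and the DBA/2J minus C57BL/6J difference was 0.64 ± 0.14 (adjusted p = 0.000597). Serpina10 ran the other way. It averaged 167 ± 23.5 CPM in M and 161 ± 15.7 CPM in F in DBA/2J (0.05 ± 0.08, adjusted p = 0.661), and 133 ± 34.6 CPM in M and 99.0 ± 21.1 CPM in F in C57BL/6J (0.41 ± 0.08, adjusted p = 3.3e-05). The DBA/2J minus C57BL/6J difference of Serpina10 was -0.36 ± 0.12 (adjusted p = 0.0186). Under library totals neither the Serpina3m difference in DBA/2J (0.19, adjusted p = 0.0956) nor the Serpina10 difference in C57BL/6J (0.18, adjusted p = 0.0746) was called, while Serpina3m in C57BL/6J was called lower in M (-0.44, adjusted p = 0.000161), as it was without C57BL/6J M Medium Protein replicate 5 (-0.25, adjusted p = 0.0437). Of the 6 differences between strains that were not called, those of Serpina3c (-1.52 ± 0.61), Serpina3n (-0.43 ± 0.17) and Serpina6 (-0.72 ± 0.31) were called with 1 library left out in 3, 9 and 2 cases. The Serpina3c difference, which rests on C57BL/6J values near the floor, was -0.37 without C57BL/6J M Control replicate 6. The cases were C57BL/6J M Control replicates 3, 4 and 5 for Serpina3c, and C57BL/6J F Control replicate 4 (-0.82) and DBA/2J M Control replicate 5 (-0.85) for Serpina6. From Control libraries alone neither difference between strains was called (0.43, adjusted p = 0.316 for Serpina3m and -0.26, adjusted p = 0.476 for Serpina10).

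Serpina7 and Serpina3n were the members lower in M, both in DBA/2J. Serpina7 ranged between 18.6 and 83.3 CPM in DBA/2J M (median 52.6), against 18.8 and 226 CPM in DBA/2J F (median 93.6), and all 18 M libraries lay below the F median. Its log2 difference was -1.04 ± 0.23 (adjusted p = 0.00017) in DBA/2J and -0.41 in C57BL/6J (adjusted p = 0.148). Serpina3n was lower in DBA/2J M by -0.30 ± 0.12 (adjusted p = 0.041), a call near its threshold that was lost in 20 of 48 alternative settings. Serpina6 was called in neither strain (0.34, adjusted p = 0.213 in C57BL/6J and -0.39, adjusted p = 0.155 in DBA/2J).

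Known regulators of sex-biased liver genes were read beside these. Growth hormone acts on the liver through its receptor and STAT5, and its pulse pattern differs between the sexes. Of 12 such genes, 7 were higher and 2 lower in M in C57BL/6J, where 42.2% of all genes were called. In DBA/2J 2 were higher and 3 lower, a share near the 39.2% of all genes called. Cux2, a repressor typical of female liver, was lower in M by -2.77 ± 0.33 in C57BL/6J and -5.80 ± 0.40 in DBA/2J, and Trim24 by -0.48 ± 0.10 and -1.61 ± 0.10. Ghr, the growth hormone receptor, was higher in M by 0.62 ± 0.08 and 0.36 ± 0.08. In C57BL/6J Igf1 (0.43), Igfals (0.55), Onecut1 (1.63), Cish (1.39), Jak2 (0.20) and Stat5b (0.17) were also higher in M, and in DBA/2J Bcl6 was higher (0.93) and Socs2 lower (-1.13).

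Diet was the study's main question, and the Low Protein diet was compared with Control in each strain and sex. In C57BL/6J M 2 of the 8 genes were called, 1 higher and 1 lower, where 9.78% of all genes were called. In C57BL/6J F none of the 8 was called by edgeR (1 at an unadjusted p under 0.05), where 3.25% of all genes were. In DBA/2J M none was called by edgeR (1 at an unadjusted p under 0.05; limma-voom called 1), where 0.093% of all genes were. In DBA/2J F 1 of the 8 was called, where 0.816% of all genes were. Averaged over the 4 combinations of strain and sex 1 of 8 was called, where 8.01% of all genes were. The median log2 change of the 8 was -0.24, -0.12, -0.04 and 0.04 in C57BL/6J M, C57BL/6J F, DBA/2J M and DBA/2J F, against 0.01, 0.009, 0.009 and -0.003 for all genes.

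**Figure D4:**
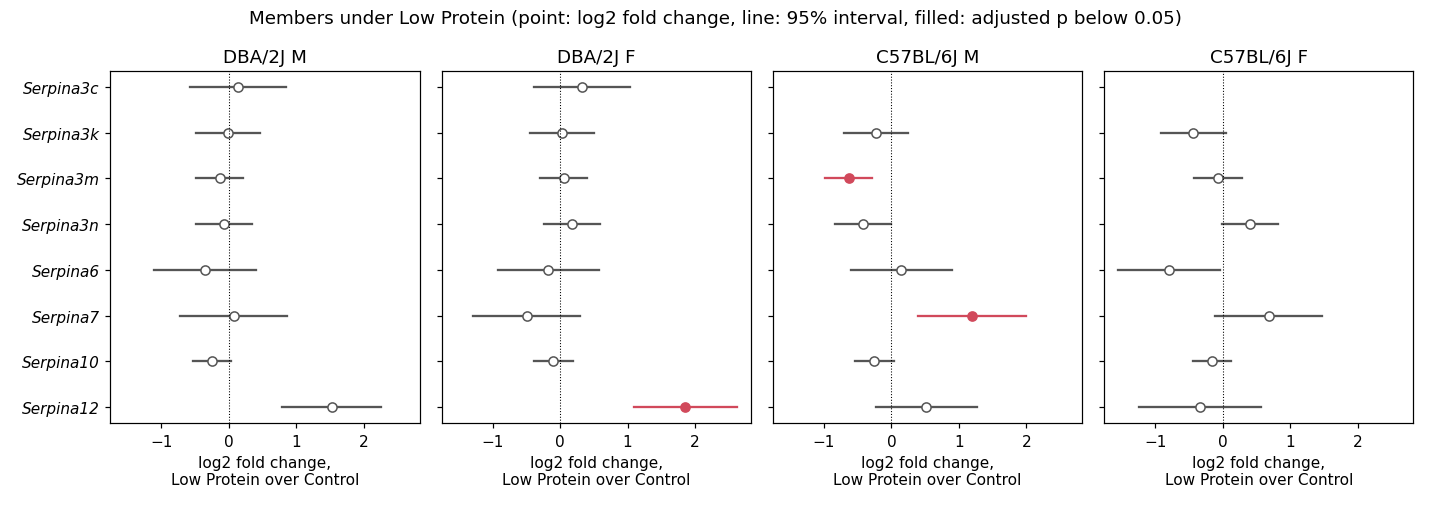
Log2 fold change of Low Protein over Control for the 8 genes in each strain and sex, with 95% intervals and filled points where the adjusted p was under 0.05 (Serpina3c is left out in C57BL/6J, where its counts are few). Serpina12 lies at 1.52 in DBA/2J M and 1.85 in DBA/2J F, against 0.52 in C57BL/6J M and -0.34 in C57BL/6J F.

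Serpina12 rose under Low Protein in DBA/2J F. Along Control, Medium Protein and Low Protein its levels in DBA/2J F were 4.60 to 13.1 CPM (median 7.10), 4.75 to 27.2 CPM (median 12.5) and 16.4 to 48.5 CPM (median 25.8). In DBA/2J M the same order gave 37.3 to 72.7 CPM (median 59.1), 28.7 to 157 CPM (median 74.8) and 76.0 to 229 CPM (median 161). In each sex all 6 Low Protein libraries lay above all 6 Control libraries, and 3 of 6 lay above the highest Medium Protein library. The log2 change in DBA/2J F, 1.85 ± 0.38 (adjusted p = 0.00461), kept its call in 24 of 24 alternative settings, every left-out library of these groups included. In DBA/2J M the change was 1.52 ± 0.37 (2.87-fold) with an adjusted p of 0.0759. There it was called with library totals (1.60, adjusted p = 0.0477), with limma-voom (1.50, adjusted p = 0.0108), without DBA/2J M Low Protein replicate 2 (1.67, adjusted p = 0.0405) and in the authors' deposited table (log2 1.50, adjusted p = 0.0106). The authors' deposited table gives a log2 change of 1.83 in DBA/2J F (adjusted p = 0.00371).

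In C57BL/6J Serpina12 had its highest mean on the Medium Protein diet in both sexes. In C57BL/6J M the Control, Medium Protein and Low Protein libraries had 8.64 to 22.5 CPM (median 13.6), 20.4 to 43.4 CPM (median 29.0) and 13.4 to 26.8 CPM (median 20.4). In C57BL/6J F they had 0.323 to 7.02 CPM (median 1.85), 1.83 to 5.97 CPM (median 4.24) and 1.04 to 3.15 CPM (median 1.68). The groups overlapped, and no change was called. Low Protein over Control was 0.52 ± 0.37 in M (95% interval -0.22 to 1.26, adjusted p = 0.43) and -0.34 ± 0.45 in F (-1.24 to 0.57, adjusted p = 0.778). Medium Protein over Control was 1.06 ± 0.37 in M (adjusted p = 0.238) and 0.72 ± 0.43 in F (adjusted p = 0.743), with 5 of 6 Medium Protein M libraries above the highest Control one.

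The strains' changes in Serpina12 were compared directly. Low Protein over Control was larger in DBA/2J than in C57BL/6J by 2.19 ± 0.59 in F (95% interval 1.02 to 3.37, adjusted p = 0.101) and by 1.00 ± 0.52 in M (-0.03 to 2.03, adjusted p = 0.32), and neither was called by edgeR. The F difference was called by DESeq2 (2.19, adjusted p = 0.0322) and without C57BL/6J F Control replicate 1 (2.42, adjusted p = 0.0345). Without C57BL/6J F Control replicate 5 it was 1.54 (adjusted p = 0.3), and with limma-voom 1.66 (adjusted p = 0.457). For these differences none of the 8 genes was called in F (2 at an unadjusted p under 0.05), where 0.093% of all genes were, and none in M (2 at an unadjusted p under 0.05), where 2.88% were. For M minus F in the Low Protein change none of the 8 was called in C57BL/6J (2 at an unadjusted p under 0.05), where 4.56% of all genes were, and none in DBA/2J (0 at an unadjusted p under 0.05), where 0 of 19362 genes were. Serpina12 in DBA/2J had an M minus F difference of -0.33 ± 0.52 (95% interval -1.36 to 0.70). Averaged over the 4 combinations Serpina12 was higher on Low Protein by 0.89 ± 0.20 (1.85-fold, adjusted p = 0.00169), an average over values of both signs. On Medium Protein the average was 0.84 ± 0.19 (adjusted p = 0.418), and without C57BL/6J F Control replicate 5 it was 1.01 and called (adjusted p = 0.0192).

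Ranked by mean over the 12 groups, Serpina12 was highest in DBA/2J M Low Protein (162 ± 53.1 CPM), then DBA/2J M Medium Protein (86.5 ± 49.6), DBA/2J M Control (56.5 ± 16.3), C57BL/6J M Medium Protein (30.0 ± 8.16) and DBA/2J F Low Protein (28.1 ± 12.9; SD, n = 6 each). Next came C57BL/6J M Low Protein (20.7 ± 5.23), DBA/2J F Medium Protein (15.3 ± 9.07), C57BL/6J M Control (14.4 ± 5.23) and DBA/2J F Control (7.76 ± 3.18). The 3 C57BL/6J F groups were lowest, at 4.02 ± 1.59 on Medium Protein, 2.46 ± 2.44 on Control and 1.95 ± 0.82 on Low Protein. Every neighbouring pair in this order had overlapping ranges.

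Of vaspin's listed partners and target proteases 2 of 4 were tested, since Klk7 and Klk14 did not pass the filter on low counts. Hspa5, the endoplasmic reticulum chaperone reported to bind vaspin at the cell surface, was higher in M by 0.75 ± 0.12 in C57BL/6J (adjusted p = 1.14e-06) and 0.87 ± 0.13 in DBA/2J (adjusted p = 4.19e-08). Dnajc1, a chaperone partner, was lower on Low Protein by -0.13 ± 0.03 averaged over the 4 combinations (adjusted p = 0.0135).

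Serpina3m fell under Low Protein in C57BL/6J M. It had 217 to 252 CPM on Low Protein (median 239), against 257 to 442 CPM on Control (median 372), and the groups did not overlap. The log2 change was -0.63 ± 0.18 (1.55-fold lower, adjusted p = 0.0119). Under library totals it was -0.39 (adjusted p = 0.0873). That scaling moves Low Protein over Control in C57BL/6J M by 0.262 and over Medium Protein by 0.187 for every gene, and moves no other diet comparison by more than 0.079. The sum of the 14 Serpina3 genes changed by -0.26 ± 0.22 (adjusted p = 0.514).

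Serpina7 rose under Low Protein in C57BL/6J M. It had 27.8 to 89.2 CPM on Low Protein (median 67.6), against 12.9 to 37.4 CPM on Control (median 28.1) and 3.33 to 41.4 CPM on Medium Protein (median 20.5). In all, 5 of 6 Low Protein libraries lay above the highest Control library. The change over Control was 1.195 ± 0.402 (2.29-fold, adjusted p = 0.0451), and leaving out single libraries ended this call in 10 of 12 cases, all but Control replicate 6 and Low Protein replicate 2, with values of 1.05 to 1.35. The change over Medium Protein was 1.66 ± 0.41 (3.16-fold, adjusted p = 0.00526) and was called with each of the 12 libraries left out. In the other combinations Low Protein over Control was 0.68 ± 0.40 in C57BL/6J F, 0.07 ± 0.40 in DBA/2J M and -0.50 ± 0.39 in DBA/2J F, and none was called.

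Red blood cell markers moved with the Low Protein diet in C57BL/6J M. Of 7 such markers 5 were higher than on Control and none lower, where 9.78% of all genes were called. Their sum was 169 to 480 CPM on Low Protein (median 379), against 127 to 260 CPM on Control (median 164). None of the 7 had a median of 0 in any group. Their part in the Serpina changes there was not tested.

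The remaining diet comparisons set Medium Protein against Control and Low Protein against Medium Protein. They share Control or Medium Protein libraries with each other and with those above. On Medium Protein against Control none of the 8 genes was called by edgeR in any combination, where 0.418% of all genes were called in C57BL/6J M, 0 of 19362 in C57BL/6J F and 0.00516% in each of DBA/2J M and DBA/2J F. At an unadjusted p under 0.05 these were 2, 0, 0 and 1 of the 8. Averaged over the 4 combinations 0 of 19362 genes were called, and 1 of the 8, Serpina12, had an unadjusted p under 0.05. On Low Protein against Medium Protein 3 of the 8 were called in C57BL/6J M, where 6.53% of all genes were. None was called by edgeR in C57BL/6J F (4 at an unadjusted p under 0.05, 1.94% of all genes called), DBA/2J M (1, 0 of 19362 genes) or DBA/2J F (1, 0.0413%).

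Serpina3n and Serpina10 fell on Low Protein against Medium Protein in C57BL/6J M, beside the rise of Serpina7. Serpina3n had 258 to 607 CPM on Low Protein (median 308), against 400 to 884 CPM on Medium Protein (median 663), with 5 of 6 Low Protein libraries below the lowest Medium Protein one (-0.86 ± 0.21, adjusted p = 0.00407). Serpina10 had 76.8 to 166 CPM on Low Protein (median 102), against 141 to 173 CPM on Medium Protein (median 152), again with 5 of 6 below (-0.49 ± 0.14, adjusted p = 0.0219). Serpina3k (-0.67 ± 0.24, adjusted p = 0.0765) and Serpina3m (-0.51 ± 0.18, adjusted p = 0.065) were not called. Serpina3k was called without C57BL/6J M Medium Protein replicate 6 (-0.80, adjusted p = 0.0402) or Low Protein replicate 3 (-0.85, 0.024), and Serpina3m without Medium Protein replicate 1 or 3 (-0.58 each). The Serpina10 call ended without Medium Protein replicate 5 (-0.46, adjusted p = 0.0575), Low Protein replicate 4 (-0.40, 0.0909) or Low Protein replicate 5 (-0.46, 0.0698). With only the 2 groups compared in the fit, none of the 3 calls remained (adjusted p = 0.0507 for Serpina3n, 0.0976 for Serpina10 and 0.0947 for Serpina7).

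In 3 C57BL/6J libraries Serpina3n and Serpina10 stood above the rest of their group together with acute phase genes. C57BL/6J M Control replicate 4 had 933 CPM of Serpina3n, where the other 5 libraries had 287 to 526, and 216 CPM of Serpina10, where they had 104 to 123. C57BL/6J M Low Protein replicate 3 had 607 CPM of Serpina3n, and C57BL/6J F Low Protein replicate 1 had 1131 CPM, while the others of their groups had 258 to 313 and 343 to 499. These libraries were the highest of their groups in 20, 22 and 19 of 23 acute phase genes, and Saa1, a serum amyloid gene, reached 1350, 762 and 626 CPM in them, against medians of 62.1, 9.53 and 6.56 CPM. The 3 libraries were picked after these values were seen, for Serpina3n and Serpina10 among other genes, and none was a Medium Protein library. The values of these 2 genes without them follow in part from that choice and are given with no test. Low Protein against Medium Protein in C57BL/6J M was then -1.10 for Serpina3n and -0.64 for Serpina10, and Medium Protein against Control was 0.76 and 0.44. In the average of the 4 combinations Low Protein against Control was -0.23 for Serpina10. With all other libraries in the fit, that average was -0.23 without C57BL/6J M Low Protein replicate 3 alone. Without C57BL/6J F Low Protein replicate 1 alone it was -0.24. Without C57BL/6J M Low Protein replicate 3 alone, Serpina3n on Low Protein over Control in C57BL/6J M was -0.66. The M minus F difference in that change was then -1.06. Each of these single-library values passed the threshold, but they too follow in part from the choice of libraries and are given with no test. Without all 3, Serpina3k on Low Protein against Medium Protein in C57BL/6J M was -0.85. Low Protein replicate 3 was also the highest of its group in Serpina3k, at 9199 CPM, where the others had 3715 to 5785. That value therefore follows in part from the choice too and is given with no test. The Serpina7 rise over Control in C57BL/6J M was not called without all 3 (1.25, adjusted p = 0.0785).

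Serpina6 was not called for any diet. Its mean was lowest in C57BL/6J F Low Protein, at 70.5 ± 12.6 CPM, against 122 ± 65.8 CPM in C57BL/6J F Control (SD, n = 6 each), a log2 change of -0.79 ± 0.38 (95% interval -1.55 to -0.04, adjusted p = 0.27). Within groups it was among the most variable of the 8, with coefficients of variation between 17.9% and 62.5%, against 3.85% to 34.3% for Serpina10. Serpina3c in DBA/2J was 0.14 ± 0.35 in M and 0.33 ± 0.36 in F on Low Protein against Control, and was called in neither.

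The other genes of these pathways were counted for the Low Protein diet against Control in C57BL/6J M, where 9.78% of all genes were called (790 higher and 1104 lower). Of 14 other clade A serpins tested, 1 was higher and 4 lower (median log2 change -0.11). The alpha-antitrypsin genes Serpina1d (-0.70 ± 0.12, adjusted p = 3.38e-05), Serpina1c (-0.52 ± 0.12, 0.00193) and Serpina1b (-0.34 ± 0.08, 0.00334) fell, as did Agt, the angiotensin precursor (-0.33 ± 0.11, 0.03). Of 13 serpins of other clades, 6 were lower and 1 higher (median -0.24). Antithrombin Serpinc1 (-0.30), heparin cofactor Serpind1 (-0.43), Serpinf1 (-0.45), the plasmin inhibitor Serpinf2 (-0.45), Serpinb1a (-1.28) and Serpinb8 (-0.63) fell, and the collagen chaperone Serpinh1 rose (0.63). Of 12 coagulation proteases and cofactors 5 were lower and none higher (median -0.24). These were prothrombin F2 (-0.31), Proz, the protein Z that partners Serpina10 (-0.34), F7 (-0.41), F10, the target of Serpina10 (-0.24), and F13b (-0.22). Under library totals each of these values moves up by about 0.262.

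The hormone pathways of the carrier serpins were counted in that comparison too, beside the 9.78% of all genes called. Of 13 thyroid hormone carriers, transporters and targets, 2 were lower, the transporter Slco1a4 (-1.24 ± 0.27, adjusted p = 0.00101) and the receptor Thra (-0.38 ± 0.12, adjusted p = 0.0364), and none was higher. Of 12 genes of glucocorticoid metabolism and response, 2 were lower, Mt1 (-2.17 ± 0.56, adjusted p = 0.0061) and Tsc22d3 (-1.10 ± 0.34, adjusted p = 0.0251). Of 23 acute phase genes 1 was higher, Saa3 (1.64 ± 0.45, adjusted p = 0.0102), and 1 lower, Orm3 (-2.19 ± 0.68, adjusted p = 0.0276). Of 12 growth hormone genes 1 was lower, Igfals (-0.49 ± 0.16, adjusted p = 0.0398). Among the liver transcription factors listed, Cebpa was lower (-0.38).

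Some of the 8 genes varied together between libraries of the same group. Deviations of log2 CPM from the group mean were correlated, as a description without a test, since the libraries share scaling and near-identical genes share reads. In DBA/2J F (18 libraries) Pearson's r was 0.964 between Serpina3k and Serpina3m, 0.949 between Serpina3k and Serpina3c, 0.77 between Serpina3k and Serpina12, and -0.828 between Serpina3k and Serpina6. In DBA/2J M (18 libraries) Serpina3k had r = 0.858 with Serpina3m and -0.755 with Serpina6. Over all 72 libraries these were 0.672 and -0.64. In C57BL/6J M Serpina6 and Serpina7 had r = 0.769 (18 libraries). The spread behind this was wide in DBA/2J F, where Serpina3k ran between 4135 and 12660 CPM, against 10200 to 15260 CPM in DBA/2J M.

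**Figure D5:**
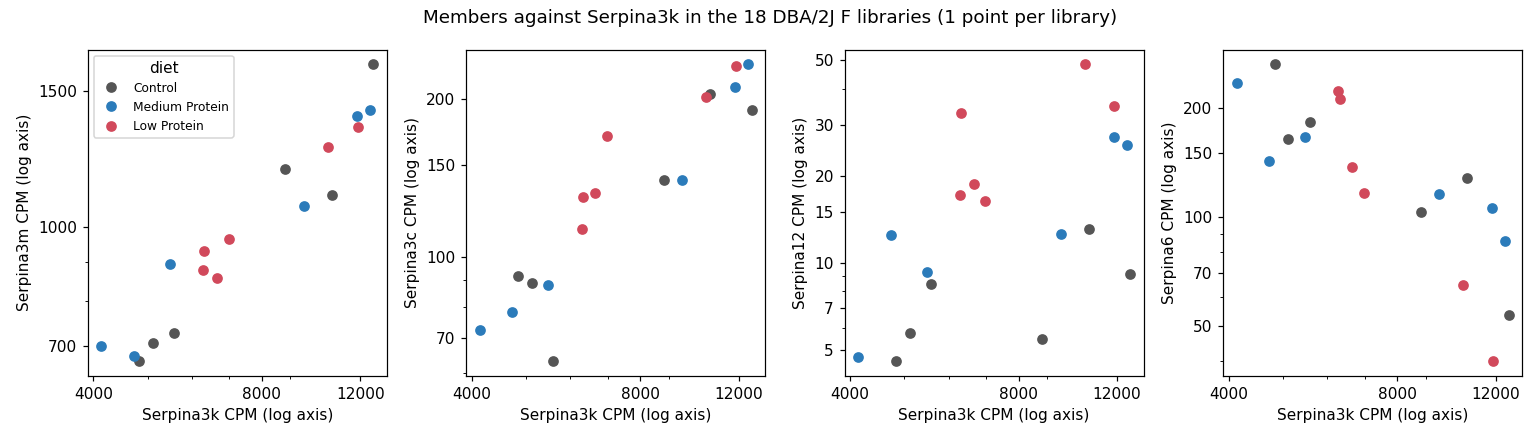
Members against Serpina3k in 18 DBA/2J F libraries, both in CPM on log axes, with 1 point per library coloured by diet. Serpina3c and Serpina3m are higher where Serpina3k is higher (r = 0.949 and 0.964 over deviations from group means), and Serpina6 is lower (r = -0.828).

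Beyond the family, Serpina3n and Serpina10 varied with acute phase genes. Over deviations in 72 libraries, Serpina3n had a median r of 0.691 with the 23 acute phase genes, 16 of them over 0.5 and the highest with Lcn2 (0.791). Serpina10 had a median of 0.559, again with 16 over 0.5, and the highest with Itih4 (0.724). The 3 C57BL/6J libraries high in acute phase genes are among the 72, and no r without them is given. Between Serpina3n and Serpina10 r was 0.657 in C57BL/6J M and 0.536 in C57BL/6J F. In DBA/2J it was 0.14 in M and -0.21 in F (18 libraries each). Serpina6 had r = 0.772 with Ghr, 0.708 with the glucocorticoid receptor Nr3c1 and 0.691 with Thrsp, a thyroid hormone target. Serpina12 passed 0.5 with no gene of the 9 lists, and its highest value was 0.491, with Serpina3a.

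The genes most like each member over the 12 group means, by Pearson's r of mean log2 CPM, all lay on other chromosomes than chromosome 12. They were Mtmr4 (0.985) and Zfp180 (0.974) for Serpina12, Sae1 (0.996) and Tpm3-rs7 (0.996) for Serpina3c, and Mpg (0.991) and Pgm5 (0.99) for Serpina3m. For Serpina3k they were Slco1b2 and Pdcd4 (0.979 each), for Serpina10 Ift140 (0.967) and Iigp1 (0.965), and for Serpina7 Camk1 (0.938) and Afap1l2 (0.933). Serpina6 (Tardbp 0.91, Dsc2 0.884) and Serpina3n (F7 0.86, Tifa 0.851) had the lowest values. The 12 group means differ mainly by strain and sex, and many genes share such a pattern.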

How the data were processed

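RNA of fasted liver was sequenced in 72 libraries as stranded polyA libraries with 2 lanes merged, per the labels' protocols. The deposited table holds expected counts per gene, for which the submitters' processing notes name RSEM; they also name edgeR, limma and R 3.4.3. Which aligner, genome build and annotation were used is not given in the sources used here. Of 51912 genes, 51633 had a symbol, and 11.6% of the count values were not whole. Symbols came from GENCODE M21, save those of the 8 members. These came from the authors' deposited comparison table of log2 fold changes and p-values.

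Expected counts were rounded and tested with edgeR 4.0.16 in R 4.3.3. The filter was filterByExpr, scaling was TMM, and the model was a quasi-likelihood fit with a mean for each of the 12 groups. P-values were adjusted by Benjamini-Hochberg over 19362 genes for each of 23 comparisons. The SE is the log2 fold change divided by the root of its F, and intervals are 95%. CPM use TMM-scaled totals. Symbol and exon coordinates came from GENCODE M21 (GRCm38), matched by Ensembl ID. DESeq2 1.42.0, limma 3.58.1, other scalings and filters, and each left-out library were alternatives. The test was checked on simulated counts. All 8 genes are named in every comparison, and from lists of up to 13 genes the called ones are named, otherwise those with the smallest adjusted p. Genes like a member are the 2 with the highest r that have a symbol and a mean log2 CPM of at least 0. The 8 members and genes with Gm or Rik names were left out of that search. The members, lists and tests were chosen with earlier results of these data known. One gene of the transcription factor list is not reported here.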

Additional observations from a re-analysis of the deposited data

Results flagged for a closer look

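In each of the 96 pairs of gene and group, the highest or lowest of 6 libraries was set against the rest, and 9 pairs (9.38%) had a library that stood apart. Chance gives about 1 in 20. Serpina3c was 5.62 CPM in C57BL/6J M Control replicate 6, where the other 5 libraries had 0.0319 to 0.107 CPM. Serpina3m was 1787 CPM in DBA/2J M Medium Protein replicate 2, where the others had 1320 to 1450 CPM.

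Serpina3n was 933.4 CPM in C57BL/6J M Control replicate 4 (others 286.6 to 526.4), 607 CPM in C57BL/6J M Low Protein replicate 3 (257.7 to 313) and 1131 CPM in C57BL/6J F Low Protein replicate 1 (343.1 to 498.6). Serpina10 was 215.8 CPM in the first of these libraries (others 103.8 to 123) and 156 CPM in the last (74.34 to 84.75). Serpina6 was lowest in C57BL/6J M Control replicate 3, with 64.42 CPM (others 131.3 to 155.9), and highest in DBA/2J M Control replicate 5, with 265.2 CPM (67.09 to 131.8).

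The M over F difference differed between strains for 2 genes, by the interaction test given in the report. DBA/2J minus C57BL/6J was 0.6398 for Serpina3m and -0.3609 for Serpina10 on the log2 scale.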

How the results depend on the processing

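Of 32 called results for single members, 15 kept their call under every alternative, 17 lost it under at least 1, and none reversed. Of 122 member results with an unadjusted p of 0.05 or more, 7 were called under at least 1 alternative. Of these, library totals called Serpina7 (-0.65) and Serpina6 (-0.63) lower in M in C57BL/6J and DBA/2J. Serpina3n for M over F in C57BL/6J was 0.27 without C57BL/6J F Low Protein replicate 1 and passed the threshold. That library was picked in part on Serpina3n, so the value is given with no test. Leaving out DBA/2J M Control replicate 5 called Serpina6 lower in DBA/2J M than F (-0.52, adjusted p = 0.0484). The rest of the 7 were Serpina10 or Serpina3n results called only without the 3 libraries highest in acute phase genes. Those libraries were picked in part on these genes, so such calls follow in part from that choice. Directions below are those of results with an unadjusted p under 0.05. Of 270 comparisons of member counts with an alternative, 40 differed at all and 21 by more than 1.5 times. Among the smaller changes, the fold of 1.2 left 4 of 6 calls each for strain in M and for sex in DBA/2J. No paired analysis was possible because no title number was shared between diets of one strain and sex, numbers shared across strains or sexes name different mice, and replicate numbers in accession order pair no samples.

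For Low Protein against Control, the count of called members in C57BL/6J M (2) was 1 with library totals, no filter, limma-voom, without libraries over 5% ribosomal-like RNA and without the 3 libraries highest in acute phase genes, and 0 against a fold of 1.2. The same omission of 3 libraries, picked in part on Serpina3n and Serpina10, gave 1 in C57BL/6J F (0) and 2 in the average (1), where the fold of 1.2 gave 0. In DBA/2J M (0) it was 1 with library totals, limma-voom and the authors' deposited table. Without the 3 libraries, Medium Protein in C57BL/6J M (0) gave 2, and Low against Medium Protein in C57BL/6J F (0) gave 1, all of them Serpina3n or Serpina10. Low against Medium Protein in C57BL/6J M (3) gave 5 with DESeq2 and 0 with only the groups compared in the fit. DESeq2 gave 1 for the strain difference in the Low Protein change in F (0). M over F in DBA/2J (6) gave 3 from Control libraries alone, and its difference between strains (2) gave 4 with DESeq2, 1 against the fold of 1.2 and 0 from Control libraries alone.

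Leaving out 1 library gave counts of 1 to 2 (Low Protein, C57BL/6J M), 0 to 1 (DBA/2J M), 2 to 4 (Low against Medium, C57BL/6J M), 1 to 2 and 0 to 1 (averages of Low and Medium Protein), 0 to 1 (sex difference in C57BL/6J and strain difference in F of the Low Protein change), 7 to 8 (strain, F), 3 to 5 and 5 to 7 (sex, C57BL/6J and DBA/2J) and 2 to 4 (sex by strain). Other counts did not move: 6 for strain in M, 1 for Low Protein in DBA/2J F and 0 elsewhere. The rises in the Low Protein average and in the C57BL/6J sex difference came without a library picked in part on Serpina3n and Serpina10.

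Serpina3c on Low Protein in C57BL/6J M (-1.46, not called) reversed to 0.5522 with limma-voom, 2.167 without ribosomal-rich libraries, 0.5602 in the authors' deposited table and 1.966 without C57BL/6J M Control replicate 6 (lowest with 1 library left out, -2.082). Its difference between strains (1.60) reversed to -0.4182 with limma-voom, -2.072 without the ribosomal-rich libraries and -1.831 without C57BL/6J M Control replicate 6 (highest with 1 library left out, 2.218). Serpina3m for sex in C57BL/6J (-0.21) was 0.06181 from Control libraries. Summing the Serpina3 genes reversed Serpina3n in C57BL/6J F, Low against Medium Protein (-0.504), Serpina3m and Serpina3n for M minus F in C57BL/6J (0.04549), Serpina3m for sex in C57BL/6J (0.869), Serpina3n for sex in DBA/2J (0.5586) and Serpina3m for sex by strain (-0.3105), because the sum is mostly Serpina3k. The cause of the other changes was not tested.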
